A study of Mus musculus with 9 samples.

Results

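The 9 genes described here are Atf4, Atf5, Ddit3, Trib3, Chac1, Asns, Sesn2, Fgf21 and Gdf15, the ATF4 branch of the integrated stress response together with the secreted hormones FGF21 and GDF15. They were chosen by symbol from a table of 11229 genes, with earlier results of these data known. All 9 were among the 9649 genes whose mean level allowed a test. The data are RNA-seq of liver from C57BL/6 mice of 8 weeks, with 3 libraries in each of 3 groups. The mice had ischaemic postconditioning (IPO), in which the returning blood flow is briefly stopped again, ischaemia-reperfusion (IR), in which the flow to the liver is stopped and let back, or sham surgery. The labels give no length of ischaemia, no interval to sampling and no word on whether replicates were separate animals, so p-values measure the spread between libraries, which may be technical. No transgene or deletion is named for any group. In whole liver, fewer cells of a type and less RNA per cell cannot be told apart.

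The integrated stress response is a relay by which kinases that sense amino acid lack, haem lack, double-stranded RNA or misfolded protein phosphorylate the translation factor eIF2. General translation then slows, while the mRNA of ATF4 is translated more, so that ATF4 protein can change with no change in its mRNA. ATF4 pairs with other bZIP factors at C/EBP-ATF response elements and turns on genes of amino acid supply, redox balance and cell death, and in liver also the hormone genes Fgf21 and Gdf15.

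In IR livers Gdf15, Trib3 and Sesn2 rose against sham livers, while Atf4 mRNA and the amino acid gene Asns did not pass the test. In IPO livers Gdf15, Fgf21, Ddit3, Sesn2 and Trib3 fell against IR livers, and Atf4, Atf5, Chac1 and Asns did not pass. These results of Gdf15 and Sesn2 held on leaving out each library in turn, and those of Trib3, Fgf21 and Ddit3 did not. Levels are given as FPKM, fragment numbers divided by transcript length and by library size. Changes are differences of log2(FPKM + 0.5), which understate the change of genes near 0. A gene was called at an adjusted p under 0.05 (limma, Benjamini-Hochberg over all 9649 genes).

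Between IR and sham 3 of the 9 genes were called higher, 0 lower and 6 in neither direction, where 11.5% of all genes were called, 3.86% higher and 7.64% lower. The 9 had a median log2 fold change of 1.05, against -0.05 over all genes, and 8 of the 9 values were positive. All IR libraries lay above all sham libraries for 4 of the 9, namely Atf5, Gdf15, Sesn2 and Trib3, as they did for 13.2% of all genes. An unadjusted p under 0.05 was reached by 5 of the 9, and by at least 2840 of all 9649 genes.

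Between IPO and IR 0 of the 9 were called higher and 5 lower, where 22.1% of all genes were called, 12.0% higher and 10.1% lower. The median log2 fold change of the 9 was -1.12, against 0.02 over all genes. All IPO libraries lay below all IR libraries for 6 of the 9 (20.4% of all genes) and above them for Atf4 alone (22.2% of all genes). Of the 9, 6 had an unadjusted p under 0.05, as had at least 3458 of all 9649 genes. Between IPO and sham limma called 0 of the 9, where 0.228% of all genes were called, 0.124% higher and 0.104% lower. In that comparison 0 of the 9 reached an unadjusted p under 0.05, where at least 1071 of all 9649 genes did. The groups overlapped for each of the 9, where 9.59% of all genes had every IPO library above sham and 13.2% below. The IR libraries stand in both of the first comparisons and the sham libraries in both comparisons against sham, so their values are not independent.

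**Figure D1:**
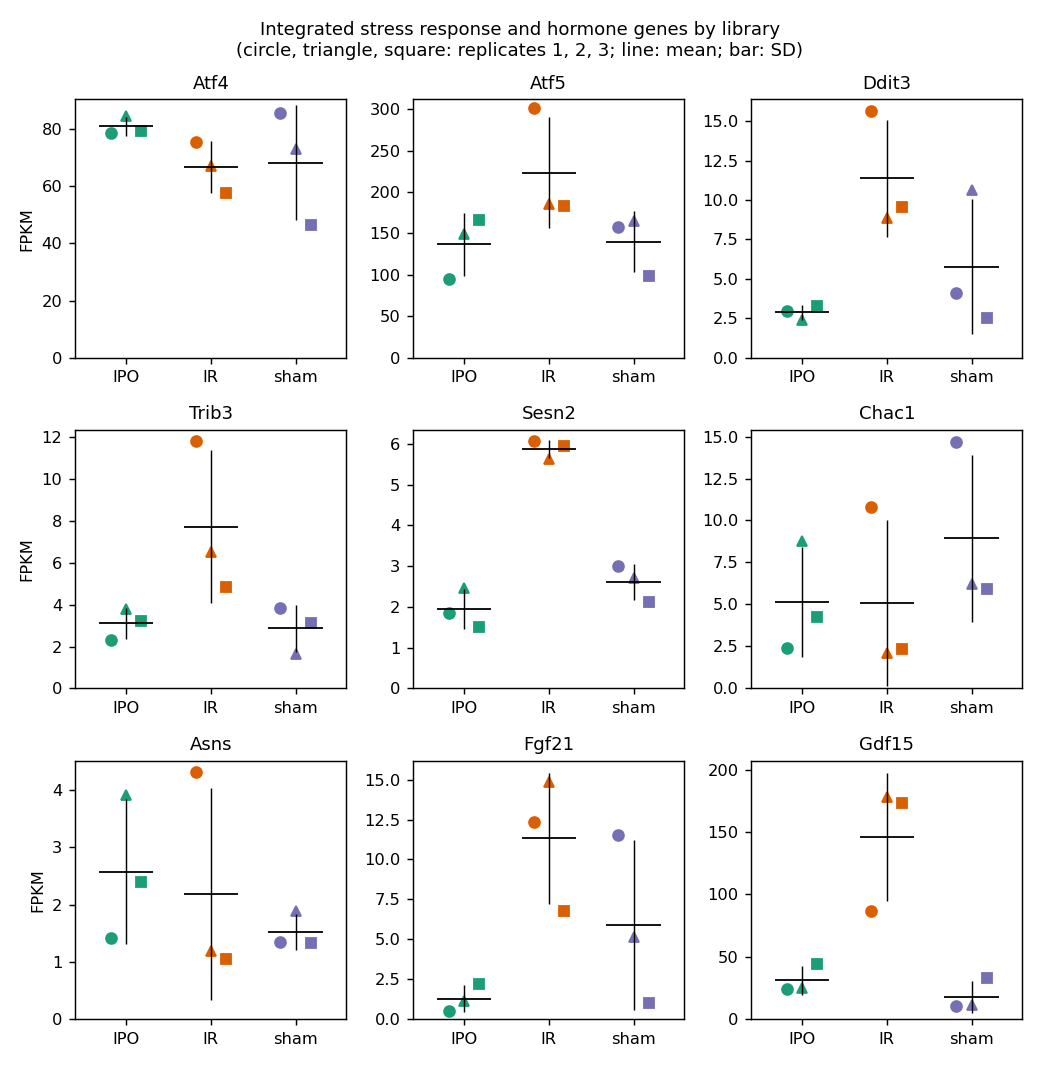
FPKM of each of the 9 genes (vertical axes from 0, a scale per gene) in IPO, IR and sham livers, with circles, triangles and squares for replicates 1, 2 and 3, a horizontal line for the mean and a bar for the SD (n = 3). The IR points of Sesn2 and Gdf15 stand clear of both other groups, those of Fgf21 and Ddit3 clear of IPO but not of sham, and Atf4 has its IR mean beside its sham mean.

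**Figure D2:**
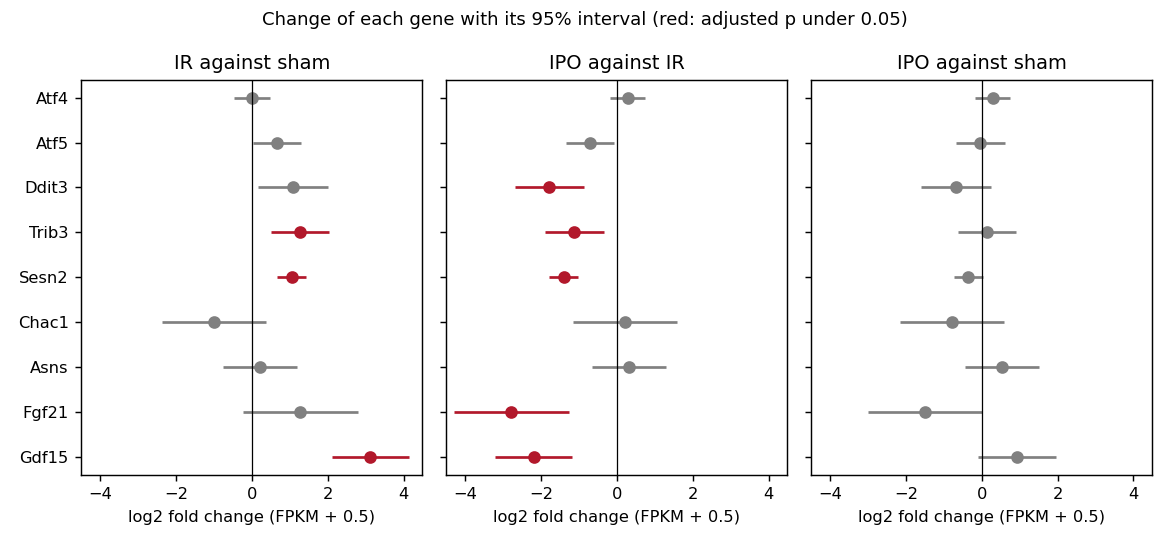
Log2 fold change of FPKM + 0.5 (horizontal axis) with its 95% interval for each gene in the 3 comparisons, in red where the adjusted p was under 0.05. In IR against sham 3 points are red and lie right of 0, in IPO against IR 5 are red and lie left of 0, and in IPO against sham 0 are red.

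Promoter sequences were looked at because the genes are known as targets of shared factors. All 9 had an entry in the RefSeq promoter table of GRCm38.p6, which holds 250 bases before and 50 after each start site. The C/EBP-ATF response element TGATGNAA, on either strand, was in 4 of the 9 windows, namely Trib3, Chac1, Asns and Fgf21, against 3.97% of 32817 promoters. Of these genes Trib3 and Fgf21 were called in some comparison, and Chac1 and Asns in none. The shorter core TGATGNA, which every match of the longer element contains, was also in Gdf15, giving 5 of the 9 against 12.2% of promoters. The AP-1 site TGANTCA, bound by JUN, FOS and ATF3 dimers, was in Ddit3 alone of the 9, against 7.81% of promoters. The windows of Sesn2, Atf4 and Atf5 held none of these motifs. Shown are the 5 genes called in IPO against IR and the 2 others with an element, for Trib3 and Asns only the 30 bases around it. Letters run 5′ to 3′ on the gene's strand, with matched letters in capitals. The start base of the promoter entry has the number 0 and the base before it -1.
Gdf15 (chr8:70632457-70632706, - strand, bases -250 to -1): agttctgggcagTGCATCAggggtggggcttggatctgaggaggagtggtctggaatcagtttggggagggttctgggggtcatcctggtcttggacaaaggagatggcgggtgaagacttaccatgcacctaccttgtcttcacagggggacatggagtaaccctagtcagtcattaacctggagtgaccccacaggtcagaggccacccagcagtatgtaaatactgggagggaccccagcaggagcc
Fgf21 (chr7:45615491-45615740, - strand, bases -250 to -1): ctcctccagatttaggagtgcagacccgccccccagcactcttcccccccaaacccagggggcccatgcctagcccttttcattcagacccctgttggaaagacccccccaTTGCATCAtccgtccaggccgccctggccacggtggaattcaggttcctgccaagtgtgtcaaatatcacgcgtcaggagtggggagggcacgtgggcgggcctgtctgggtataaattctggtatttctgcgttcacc
Ddit3 (chr10:127290543-127290773, + strand, bases -250 to -20): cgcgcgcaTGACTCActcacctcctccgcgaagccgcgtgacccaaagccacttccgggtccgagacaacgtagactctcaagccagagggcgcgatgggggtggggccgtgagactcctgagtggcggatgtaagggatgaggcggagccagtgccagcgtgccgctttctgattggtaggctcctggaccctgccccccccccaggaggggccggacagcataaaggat
Sesn2 (chr4:132510502-132510706, - strand, bases -250 to -46): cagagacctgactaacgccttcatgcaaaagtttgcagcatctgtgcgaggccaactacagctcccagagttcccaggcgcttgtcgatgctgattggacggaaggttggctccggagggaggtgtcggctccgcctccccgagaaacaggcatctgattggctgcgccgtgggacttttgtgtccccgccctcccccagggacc
Chac1 (chr2:119350992-119351228, + strand, bases -250 to -14): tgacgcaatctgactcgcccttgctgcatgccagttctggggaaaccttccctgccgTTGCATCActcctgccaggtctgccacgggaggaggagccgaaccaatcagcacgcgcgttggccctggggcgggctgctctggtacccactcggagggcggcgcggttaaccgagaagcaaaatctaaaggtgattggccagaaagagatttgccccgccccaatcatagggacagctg
Trib3 (chr2:152344028-152344057, - strand, bases 3 to 32): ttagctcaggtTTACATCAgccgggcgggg
Asns (chr6:7693214-7693243, - strand, bases -34 to -5): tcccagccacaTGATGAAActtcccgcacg
On these strands the Gdf15, Fgf21, Chac1 and Trib3 matches read as the reverse complement, and the Asns and Ddit3 matches read forward. The Gdf15 core starts at base -238 and the Ddit3 AP-1 letters at -242, while the Fgf21 and Chac1 elements start at -139 and -193. The Asns element starts at -23, and that of Trib3 lies after the start site of its promoter entry, at 14 to 21. The gene starts given below differ from these sites, by 28 bases downstream for Trib3 and 45 upstream for Asns. Counted from those, the Trib3 element lies before the start and the Asns element after it. A match is a description of the letters and not a bound site.

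Atf4 (ENSMUSG00000042406.7, chromosome 15, 80255184 to 80257540, plus strand, mm10) encodes the central transcription factor of the response. Its level was 78.7, 84.7 and 79.5 FPKM in IPO livers, 75.6, 67.0 and 57.5 in IR livers and 85.5, 73.0 and 46.4 in sham livers. The sham libraries spanned the IR range, and every IPO library was above every IR library. Between IR and sham the log2 fold change was 0.00 with a 95% interval of -0.46 to 0.47 (adjusted p = 0.995, limma). Between IPO and IR it was 0.29, from -0.18 to 0.75 (adjusted p = 0.352, limma).

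Atf5 (ENSMUSG00000038539.15, chromosome 7, 44812256 to 44816658, minus strand) encodes a bZIP factor whose mRNA is, like that of Atf4, translated more when eIF2 is phosphorylated. It had the highest mean of the 9 genes in each group, with 94.5, 150 and 167 FPKM in IPO livers, 301, 186 and 184 in IR livers and 157, 165 and 98.7 in sham livers. All IR libraries were above all libraries of the other groups, IR replicate 1 farthest. The log2 fold change was 0.67 in IR against sham (SE 0.28, adjusted p = 0.151) and -0.70 in IPO against IR (SE 0.28, adjusted p = 0.104), and neither passed the limma test.

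Ddit3 (ENSMUSG00000025408.15, chromosome 10, 127290774 to 127296288, plus strand) encodes CHOP, a factor linked to cell death under lasting stress. Its level was 2.95, 2.37 and 3.30 FPKM in IPO livers, 15.7, 8.87 and 9.56 in IR livers and 4.14, 10.6 and 2.54 in sham livers. Sham replicate 2 lay inside the IR range, while the IPO libraries were all below every IR library. Ddit3 fell in IPO against IR by 1.78 on the log2 scale, with an SE of 0.41 and a 95% interval of -2.70 to -0.86 (adjusted p = 0.0158, limma). This call was lost without IR replicate 1 (adjusted p = 0.0517) and without IPO replicate 2 (0.0548). In IR against sham the value was 1.09 (SE 0.41, adjusted p = 0.111, limma). Without sham replicate 2 it was 1.61 and passed (adjusted p = 0.0246). With the description number as a term, which set the IR libraries against sham replicate 2 alone, it was 0.05. Both values thus turn on that library.

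Trib3 (ENSMUSG00000032715.9, chromosome 2, 152337422 to 152344032, minus strand) encodes a pseudokinase that binds ATF4, CHOP and AKT and is itself a target of both factors. It had 2.33, 3.81 and 3.20 FPKM in IPO livers, 11.8, 6.50 and 4.87 in IR livers and 3.85, 1.63 and 3.12 in sham livers. Each IR library was above every other library, with IR replicate 1 the highest. Trib3 rose in IR against sham by 1.26 on the log2 scale (SE 0.34, adjusted p = 0.0439, limma) and fell in IPO against IR by 1.12 (SE 0.34, adjusted p = 0.0436, limma). Both calls lay near the threshold. The call against sham held with IR replicate 3 left out, and was lost on leaving out any other single library, with adjusted p from 0.056 to 0.144. Without an IPO library the change against sham stayed 1.26, since IPO libraries enter that comparison only through the estimate of spread. That of IPO against IR was lost without sham replicate 3, IR replicate 1 or 2, or IPO replicate 1, 2 or 3 (0.0528 to 0.137).

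Sesn2 (ENSMUSG00000028893.8, chromosome 4, 132492032 to 132510501, minus strand) encodes sestrin 2, a leucine sensor that restrains mTORC1 and limits oxidative damage. Its level was 1.86, 2.47 and 1.5 FPKM in IPO livers, 6.06, 5.62 and 5.95 in IR livers and 3.00, 2.70 and 2.13 in sham livers. The IR libraries lay close together and far above both other groups, and the IPO and sham ranges overlapped. Sesn2 rose in IR against sham by 1.05 on the log2 scale (SE 0.17, adjusted p = 0.00771, limma) and fell in IPO against IR by 1.40 (SE 0.17, adjusted p = 0.00118, limma). Leaving out each of the 9 libraries in turn kept both calls, with adjusted p of at most 0.0338 and 0.00752. Its residual SD of 0.21 on the log2 scale stood at percentile 45.6 of all genes, the lowest place among the 9.

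Chac1 (ENSMUSG00000027313.3, chromosome 2, 119351229 to 119354381, plus strand) encodes an enzyme that breaks down glutathione and is a target of ATF4. Its level was 2.41, 8.75 and 4.24 FPKM in IPO livers, 10.8, 2.11 and 2.33 in IR livers and 14.7, 6.24 and 5.90 in sham livers. In IR livers replicate 1 stood far above replicates 2 and 3, and the groups overlapped in every comparison. The log2 fold change was -0.99 in IR against sham (95% interval -2.36 to 0.38, adjusted p = 0.304, limma). That of IPO against IR was 0.20 (-1.17 to 1.58, adjusted p = 0.843, limma), so the intervals leave room for changes in either direction. Without IR replicate 1 these values were -1.68 (adjusted p = 0.0823) and 0.89 (adjusted p = 0.247).

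Asns (ENSMUSG00000029752.12, chromosome 6, 7675169 to 7693254, minus strand) encodes asparagine synthetase, whose promoter is a textbook target of ATF4. It had the lowest mean of the 9 genes in IR and sham livers, with 1.41, 3.92 and 2.40 FPKM in IPO, 4.32, 1.19 and 1.05 in IR and 1.35, 1.89 and 1.34 in sham livers. IR replicate 1 again stood above the other IR libraries. The log2 fold change was 0.21 in IR against sham (SE 0.43, adjusted p = 0.771, limma), which turned to -0.32 without IR replicate 1 and to -0.04 with the description number as a term. The value of IPO against IR was 0.32 (SE 0.43, adjusted p = 0.627, limma), and 0.85 without IR replicate 1.

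Fgf21 (ENSMUSG00000030827.5, chromosome 7, 45613886 to 45615490, minus strand) encodes a hormone that the liver secretes in fasting and amino acid lack, under PPARalpha and ATF4. Its level was 0.527, 1.10 and 2.19 FPKM in IPO livers, 12.4, 14.8 and 6.79 in IR livers and 11.6, 5.15 and 0.973 in sham livers. All IPO libraries were below all IR libraries, while the sham libraries ran from below IR to inside its range. Fgf21 fell in IPO against IR by 2.78 on the log2 scale (SE 0.67, 95% interval -4.29 to -1.27, adjusted p = 0.0185, limma). That call was lost without IR replicate 1 or 2 or IPO replicate 1 or 2, with adjusted p from 0.0542 to 0.0701, and the change then lay between -2.77 and -2.44.

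The change of Fgf21 in IR against sham was 1.28 (SE 0.67, adjusted p = 0.232, limma), with 1.97 when sham replicate 1 was left out and 0.45 when sham replicate 3 was. Between IPO and sham it was -1.5 with a 95% interval of -3.01 to 0.00 (adjusted p = 0.407, limma). Over the 9 genes Fgf21 had the largest residual SD, at percentile 99.4 of all genes, and its sham libraries spanned an 11.9-fold range.

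Gdf15 (ENSMUSG00000038508.7, chromosome 8, 70629393 to 70632456, minus strand) encodes a stress hormone of the TGF-beta superfamily that acts on brainstem neurons through GFRAL and lowers food intake. Its level was 24.1, 24.8 and 44.3 FPKM in IPO livers, 86.4, 178 and 173 in IR livers and 10.1, 10.9 and 32.7 in sham livers. Every IR library was above every library of the other groups, and sham replicate 3 reached into the IPO range. Gdf15 rose in IR against sham by 3.13 on the log2 scale (SE 0.46, adjusted p = 0.00484, limma), the largest change of the 9 genes in that comparison. It fell by 2.20 in IPO against IR (SE 0.46, adjusted p = 0.0104, limma). Both calls held without each library in turn, with changes of 2.84 to 3.66 and -2.54 to -2.02. In IPO against sham the change was 0.93, with a 95% interval of -0.10 to 1.95 (adjusted p = 0.449, limma).

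Unlike the other hormone gene, Gdf15 had its lowest IR value in replicate 1. Within the IR group replicate 1 was the highest library for 7 of the 9 genes, all but Fgf21 and Gdf15. IPO replicate 1 was the lowest IPO library for 7 of the 9, and sham replicate 3 the lowest sham library for 7. Beside this spread, 5 of the 9 genes (Asns, Chac1, Ddit3, Fgf21 and Gdf15) had a residual SD at percentile 95.8 of all genes or higher.

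The authors' deposited tables of differing genes list Gdf15 and Sesn2 as higher in IR than in sham, with log2 fold changes of 3.08 (q = 0.144) and 0.94 (q = 0.109). As lower in IPO than in IR, the authors' deposited table lists Fgf21 (-2.44, q = 0.0585), Gdf15 (-2.18, q = 0.0696) and Ddit3 (-1.64, q = 0.0494). The authors' deposited table also lists Sesn2 (-1.24, q = 0.031) and Trib3 (-1.02, q = 0.17) there, and 0 of the 9 in IPO against sham. Of all genes the authors list 320 as higher and 567 as lower in IR against sham. They list 853 and 676 in IPO against IR, and 148 and 127 in IPO against sham, beside 11229 genes with levels.

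A second deposited table holds loci assembled outside the annotation, and 10 of them lay within 10 kb of 1 of the 9 genes. At Gdf15 a locus on the same strand had the gene's own start and end. It had 16.7, 15.6 and 29.2 FPKM in IPO livers, 55.4, 103 and 31.6 in IR livers and 7.70, 6.70 and 6.18 in sham livers. There IR replicate 3 and sham replicate 3 were the lowest of their groups, whereas in the gene table sham replicate 3 was the highest sham library and IR replicate 3 was near the highest IR library. How fragments were shared between both entries was not tested, so the Gdf15 values of both replicates 3 are uncertain to that extent. Every IR library was above every other library in both tables. A locus on the opposite strand of Gdf15 (70629399 to 70631620) had 0.0869, 0 and 0.293 FPKM in IPO livers, 1.01, 1.88 and 2.15 in IR livers and 0.146, 0.0563 and 0.187 in sham livers, so it too was highest in IR.

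At Atf5 a same-strand locus (44812257 to 44816574) had 89.0, 140 and 157 FPKM in IPO livers, 289, 179 and 176 in IR livers and 147, 71.4 and 93.5 in sham livers. Its opposite-strand neighbour stayed between 1.82 and 2.59 FPKM in the 9 libraries. In the same-strand locus sham replicate 2 was the lowest sham library, whereas in the gene table it was the highest, at 165 FPKM. How fragments were shared was not tested here either, so the Atf5 value of sham replicate 2 is uncertain to that extent. The Ddit3 same-strand locus had 1.33, 1.14 and 1.45 FPKM in IPO livers, 7.44, 4.58 and 6.08 in IR livers and 1.85, 5.0 and 1.24 in sham livers, with sham replicate 2 again inside the IR range. The gene annotation of mm10 places genes on the opposite strand over the ends of Atf5 and Ddit3. The library kit keeps strand, but whether the counting used strand is not stated in the labels or file headers.

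**Figure D3:**
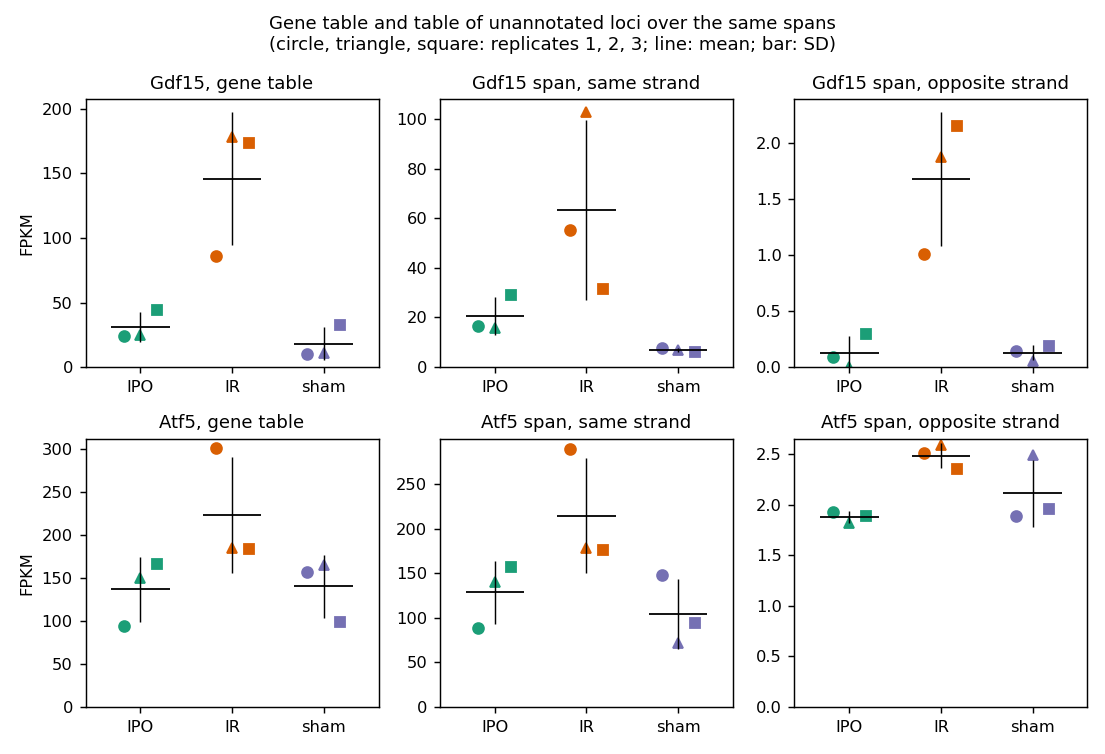
FPKM (vertical axes from 0, a scale per panel) of Gdf15 and Atf5 in the gene table (left) and of the unannotated loci over the same spans on the same (middle) and opposite strand (right) in IPO, IR and sham livers, with circles, triangles and squares for replicates 1, 2 and 3, lines for means and bars for SD (n = 3). IR is highest in all 3 Gdf15 panels, and IR replicate 3 drops from 173 FPKM in the gene table to 31.6 in the same-strand locus.

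Other genes of the pathway, and genes beside it such as hormone receptors and other secreted liver factors, were read in 10 further lists. These lists held 139 tested genes, without the 9 above. The lists were chosen with earlier results of these data known, so their shares of called genes are a description and not a test. In IR against sham 15 of the 139 (10.8%) were called higher and 9 (6.47%) lower, where 3.86% and 7.64% of all genes were. Between IPO and IR 19 (13.7%) were called higher and 21 (15.1%) lower, where 12.0% and 10.1% of all genes were. In IPO against sham limma called 0 of the 139, and 19 had an unadjusted p under 0.05, as had at least 1071 of all 9649 genes. Their median log2 fold change was -0.03 in IR against sham and -0.05 in IPO against IR, where all genes had -0.05 and 0.02. Calls lost on leaving out 1 library are given with each list, naming the library by group and number, as sham 1. All other calls named held without each of the 9 libraries. Leaving out a library of the group not compared alters only the test and not the fold change.

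Upstream of ATF4, 16 genes of the eIF2 kinases, phosphatase subunits, eIF2 and eIF2B were tested. In IR against sham Ppp1r15a, the stress-induced subunit that brings the phosphatase to eIF2, rose by 0.92 (adjusted p = 0.0407, limma). The kinase PKR gene Eif2ak2 fell by 1.02, the eIF2alpha gene Eif2s1 by 0.53 and the eIF2B subunit gene Eif2b3 by 0.83, and the other 12 were not called. Against IR livers, IPO livers had higher Eif2ak2 (0.98), Eif2b3 (0.83), Eif2s1 (0.60), Eif2s3x (0.49) and Eif2ak4, the GCN2 kinase gene (0.81), and 0 of the 16 fell. Eif2ak4 had 2.00, 2.04 and 2.07 FPKM in IPO livers, 1.07, 0.852 and 0.929 in IR livers and 1.11, 1.14 and 1.36 in sham livers. Against sham the Ppp1r15a call was lost on leaving out any single library but IR 2 (adjusted p up to 0.125), that of Eif2s1 without sham 1 or 2, IR 1 or 2 or IPO 2 or 3, that of Eif2ak2 without sham 1 or 2 or IR 2, and that of Eif2b3 without sham 1. Of IPO against IR the Eif2s3x call was lost without IR 1 or 3 or IPO 1, 2 or 3, and that of Eif2ak2 without IPO 1 or 3.

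Among 17 bZIP partners and stress factors tested, Atf3, Fos, Jun and Jund rose and Cebpg and Xbp1 fell in IR against sham. Atf3, a bZIP gene induced by ATF4 and by other stress signals, had 1.6, 6.70 and 4.39 FPKM in IPO livers, 116, 123 and 164 in IR livers and 3.67, 1.98 and 14.9 in sham livers. Its log2 fold change was 4.62 in IR against sham and -4.99 in IPO against IR (adjusted p = 0.00374 and 0.00127, limma). Xbp1, the factor spliced by IRE1 in the unfolded protein response, had 175, 143 and 162 FPKM in IPO livers, 56.5, 50.6 and 51.7 in IR livers and 203, 188 and 114 in sham livers. It fell by 1.62 in IR against sham (adjusted p = 0.00279) and rose by 1.58 in IPO against IR (adjusted p = 0.00134, limma). Of the 17, 8 fell in IPO against IR, the first 4 above and Cebpa, Creb3l3, Jdp2 and Junb, and Atf2, Atf6 and Xbp1 rose. Of these Cebpa, Creb3l3, Jdp2, Junb, Atf2 and Atf6 were named after their values were seen. The Cebpg call held only without IR 3. In IPO against IR the Fos call was lost without IR 2 or IPO 1, and Creb3l3 held only without IR 3. Atf2 was lost without sham 1 or 3, IR 1 or 3 or any IPO library, Jdp2 without sham 1 or 2, IR 1 or 3 or IPO 1 or 3, and Junb without sham 2, IR 2 or 3 or any IPO library.

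IR replicate 1 had 11.9 FPKM of Fos, against 245 and 291 in IR replicates 2 and 3, and likewise 34.4 FPKM of Egr1 against 111 and 149. It was the highest IR library for Ddit3, Trib3, Chac1 and Asns, and the lowest IR library for Gdf15 as for Fos. The Fos call against sham was lost without IR replicate 2 or 3, sham replicate 1 or 2 or IPO replicate 2 or 3, with adjusted p from 0.0565 to 0.125.

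Of 5 tested genes of amino acid and one-carbon synthesis Cth, which makes cysteine from cystathionine, rose by 0.96 in IR against sham (adjusted p = 0.0236, limma), and the other 4 were not called. Cth fell by 1.05 and Shmt2, a mitochondrial enzyme of serine use, by 0.48 in IPO against IR. The Cth call against sham was lost without sham 2 or IR 1 (adjusted p from 0.0566 to 0.0668), and that of Shmt2 without sham 2, IR 1 or 2 or any IPO library. Of 6 amino acid transporters Slc43a1 fell by 1.27 in IR against sham, and Slc38a2 rose by 0.85 in IPO against IR. The Slc43a1 call held only without sham 3 or IR 1, and the Slc38a2 call was lost without IR 1 or 3 or any IPO library.

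Of 13 genes of tRNA charging and export limma called 0 in IR against sham, where 3 had an unadjusted p under 0.05, and Iars, Nars and Sars rose in IPO against IR by 0.67, 0.48 and 0.61. Of 20 endoplasmic reticulum chaperone and ATF6 or XBP1 target genes it called 0 in IR against sham, where 2 had an unadjusted p under 0.05. Ern1, the gene of IRE1, alone of them rose in IPO against IR, by 0.84. Of 13 mitochondrial chaperone and protease genes Clpx, the unfoldase of the ClpXP protease, rose by 0.65 in IR against sham (adjusted p = 0.0495, limma) and fell by 0.63 in IPO against IR. The first of these held only without sham 1 or IR 3, and the second was lost without IR 1 or 2 or any IPO library. The Nars call held only without sham 2 or 3, and that of Iars was lost without IPO 1.

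Of 18 other targets of ATF4 and CHOP tested, Gadd45a, a growth arrest gene, rose by 2.17 and Bbc3, which encodes the cell death protein PUMA, by 1.63 in IR against sham. Ero1l, an oxidase of the endoplasmic reticulum, fell by 0.62, and 15 were not called. Gadd45a fell by 2.68 in IPO against IR, Bbc3 by 2.04, Herpud1 by 2.16 and Vegfa by 0.47, while Eif4ebp1 (0.73), Ero1l (0.65) and Map1lc3b (0.66) rose. Of these Herpud1, Vegfa, Eif4ebp1 and Map1lc3b were named after their values were seen. Against sham Gadd45a was lost without sham 1 and Ero1l without sham 1 or 2, IR 1 or 2 or IPO 2 or 3. In IPO against IR Ero1l and Vegfa were lost without IPO 1 or 3, Eif4ebp1 without IPO 2, and Map1lc3b without IR 1 or IPO 1 or 3.

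Of 13 receptors of the hormones and regulators of their genes, Egr1, Fgfr4, Ppara and Rora rose and Trp53 fell in IR against sham. Ppara, the fasting receptor that drives Fgf21, had 15.6, 15.6 and 14.2 FPKM in IPO livers, 31.6, 43.9 and 28.2 in IR livers and 18.1, 16.5 and 22.8 in sham livers. Its log2 fold change was 0.83 in IR against sham (adjusted p = 0.0224) and -1.14 in IPO against IR (adjusted p = 0.00364, limma). In IPO against IR Egr1 fell by 3.19 and Rora by 0.61, and Trp53, the gene of p53, a known activator of Gdf15 and Sesn2, rose by 0.93. Trp53 mRNA was at 5.88 ± 0.84 FPKM in IPO livers, 2.85 ± 0.45 in IR livers and 5.86 ± 1.29 in sham livers (SD, n = 3 each). The activity of p53 protein was not tested. Against sham the calls of Ppara, Rora and Trp53 were lost without sham 1 or 2, that of Ppara also without IR 2, Fgfr4 without sham 1 or 2 or IR 1, and Egr1 without any sham library or IR 2 or 3. In IPO against IR Rora was lost without IR 1 or 2 or IPO 1 or 2.

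Of 18 other secreted liver factors tested, Angptl6 and Enho rose by 0.62 and 1.12 and Hamp, the iron hormone hepcidin, fell by 1.28 in IR against sham. In IPO against IR Hamp rose by 1.13 and Igf1 by 0.51, and Angptl6, Angptl8 and Inhbc fell by 0.44, 0.99 and 0.66. The other 15 and 13 were not called. Against sham Enho held only without sham 1, and Angptl6 was lost without sham 2 or IR 2. In IPO against IR Angptl6 was lost without IR 1 or 2 or any IPO library, Angptl8 without IR 2 or 3 or IPO 2 or 3, Inhbc without sham 1 or 2, IR 2 or 3 or IPO 1 or 2, and Igf1 without IPO 1.

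**Figure D4:**
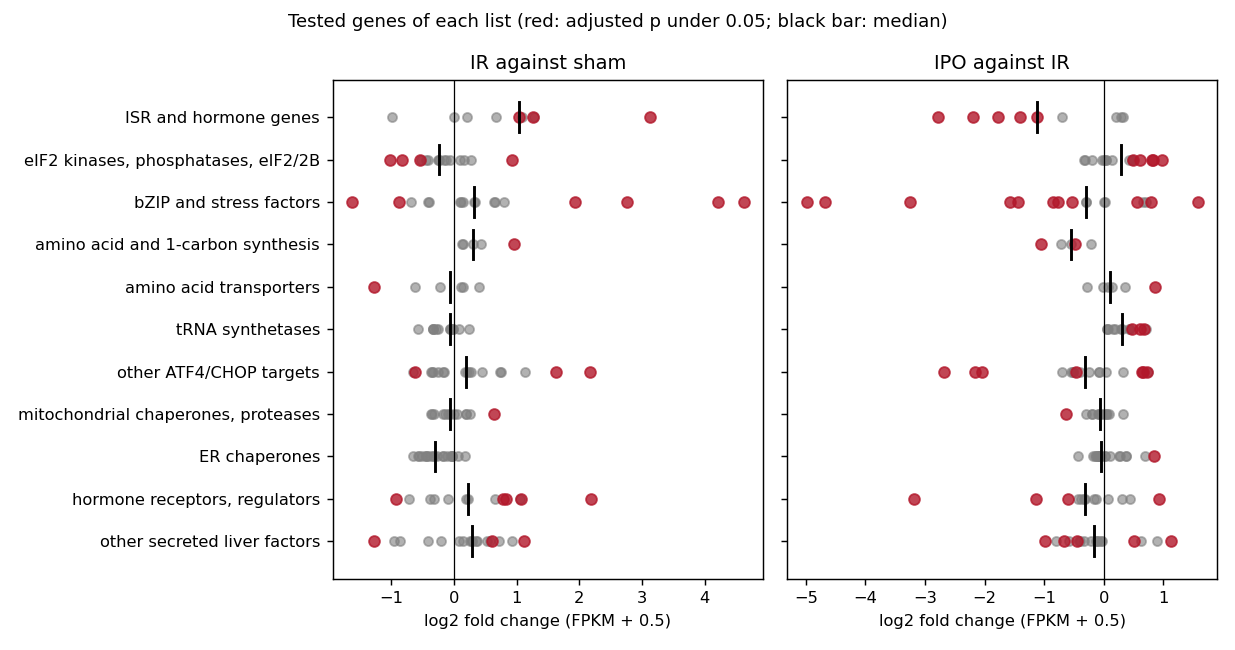
Log2 fold change of FPKM + 0.5 (horizontal axes) of each tested gene, a row per list, in IR against sham (left) and IPO against IR (right), in red where the adjusted p was under 0.05, with a black bar at the list median. The bar of the top row, the 9 genes, stands at 1.05 on the left and -1.12 on the right, and those of the other rows lie within 0.6 of 0 in both panels.

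The genes whose profiles over the 9 libraries lay nearest were sought by the root mean square difference of centred log2 values. Nearest to Ddit3 was the early response factor gene Klf10, at 0.21 where the profile of Ddit3 itself had a root mean square of 0.89, followed by the peroxisomal thiolase gene Acaa1b (0.35). For Sesn2 they were Arhgap23 (0.19) and the small GTPase gene Rhob (0.20), and for Trib3 Adck5 (0.22) and the mitochondrial carrier gene Slc25a25 (0.24). For Gdf15 they were the ERK phosphatase gene Dusp6 (0.42) and the deubiquitinase gene Otud1 (0.49), and for Fgf21 the lipolysis inhibitor gene G0s2 (0.65) and the thioesterase gene Acot2 (0.73).

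For Atf4 the nearest were Mvp (0.12) and Serinc5 (0.12), for Atf5 Rhod (0.19) and Sertad1 (0.21), and for Asns Sowahb (0.23) and Rnf24 (0.27). For Chac1 they were the major urinary protein genes Mup12 (0.41) and Mup15 (0.41), near-identical copies whose reads the counting may have split. Among the 9 genes the closest pair was Atf5 and Sesn2, at 0.43, where their own profiles had root mean squares of 0.47 and 0.62. The farthest pair was Chac1 and Gdf15, at 2.06. The measure is not scaled, so genes that vary little can lie near each other without changing alike.

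Cell type markers were read beside these changes, and their part in the results was not tested. The summed FPKM of 9 hepatocyte markers was 22380 to 24480 in IPO livers, 22060 to 29880 in IR livers and 16840 to 24370 in sham livers, and 0 of the 9 were called in any comparison (limma), with 3 at an unadjusted p under 0.05 in IR against sham. The sum of 11 Kupffer cell markers, resident macrophages, was 194 to 228 in IPO, 265, 175 and 642 in the IR replicates and 165 to 230 in sham livers. IR replicate 3, the highest in these, also had the highest sums of monocyte markers (130 against 51.0 to 89.3 elsewhere) and of T, NK and B cell markers (22.0 against 0.867 to 2.96). Without it the log2 fold change of Gdf15 was 2.97 in IR against sham and -2.04 in IPO against IR, and both calls held (adjusted p = 0.0126 and 0.0255, limma). The sum of 7 neutrophil markers was 50.1, 129 and 132 in IPO, 11.4, 42.3 and 74.9 in IR and 83.6, 65.4 and 94.2 in sham livers, lowest in IR replicate 1; 1 of the 7 was called lower in IR against sham and 3 higher in IPO against IR. Of 11 sinusoidal endothelial markers, with sums of 96.1 to 102 in IPO, 108 to 176 in IR and 76.0 to 118 in sham livers, 4 were called higher and 1 lower in IR against sham and 1 higher and 3 lower in IPO against IR. Stellate cell markers summed to 166 to 196 in IPO, 157 to 232 in IR and 159 to 171 in sham livers, and 2 of 10 tested were called higher in IR against sham and 1 lower in IPO against IR. Cholangiocyte marker sums were 35.8 to 50.7 in IPO, 37.0 to 45.6 in IR and 33.2 to 47.1 in sham livers, and of 5 tested 1 was called lower in IR against sham, and 1 higher and 1 lower in IPO against IR. Of 3 monocyte markers tested 1 was called higher in IPO against IR. The neutrophil genes Ly6g, Mpo, Elane, Camp and Ngp were not analysed here.

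Library sums of FPKM were alike, from 363429 to 387000, and no counting error is given because the files hold no read numbers. A number in the sample descriptions, of unstated meaning, was the same for all IPO libraries and differed from all others, so it cannot be told apart from postconditioning. It was shared by the IR libraries and sham replicate 2, while sham replicates 1 and 3 had another. With it as a term, IR against sham rested on sham replicate 2 alone, which gives no measure of spread among sham libraries of that number. The counts of called genes listed below for that fit are therefore not interpreted, and no gene is taken as called or not called from it. The log2 fold changes of IR against sham in that fit were 3.61 for Gdf15, 0.99 for Sesn2 and 1.86 for Trib3.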

How the data were processed

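RNA from 9 mouse livers' libraries was sequenced on a HiSeq after stranded KAPA library preparation, per the labels' protocols. The submitters' processing notes name mm10. Aligner, counter and annotation were not given in the sources used here. FPKM per gene and per unannotated locus were computed by the authors and deposited by library. The authors' deposited tables of differing genes also give a log2 fold change and a p-value and q-value from a test that no header or label names. They were printed, with their fold changes set beside those fitted on log2(FPKM + 1), and not used otherwise. Depth was looked for. Of 200 ratios to sham replicate 1 in each of the other libraries, 26.5% to 29.0% lay within 0.1 of a whole number at the best scale tried, against 20% by chance at 1 step, so depth could not be recovered.

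An empty line (1) was left out, and 9 symbols with more than 1 identifier were kept apart. Genes averaging 1 FPKM or more entered a single limma fit of log2(FPKM + 0.5) over the 3 groups (limma 3.58.1, R 4.3.3, data.table package 1.17.8, variance trend, 6 residual and 3.56 prior degrees of freedom). Tests were two-sided, with Benjamini-Hochberg adjustment within a comparison. The code was run on simulated data, drawn independently for each gene, which says nothing on the calls made here. Promoters, motif counts and marker sums were computed in Python 3.11.15 with pandas 2.3.3.

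The 9 genes, the lists and the tests were chosen with earlier results of these data known. Named genes are the 9, up to 3 genes of each list with the smallest p in IR against sham, further called genes of lists with 6 or fewer calls, and the 2 nearest profiles of each of the 9. Replicate numbers recur in each group. Over 9 same-numbered pairs residuals correlated at -0.137 to 0.0653, with 0 pairs over 0.1, so the numbers were not taken to pair libraries. Alternatives were other pseudocounts, filters, scalings, fits on 2 groups, a replicate block, the description number and leaving out each library.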

Additional observations from a re-analysis of the deposited data

How the results depend on the processing

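The directions that turned for the 9 genes, in 11 values with a library left out and 5 under other settings, had log2 fold changes of at most 0.21 in size as reported. In IR against sham Atf4 was -0.067 with quantile normalization and -0.14 with the description number, and Asns -0.040 with the description number. In IPO against sham Atf5 was 0.0007959 with median-of-ratios scaling and 0.016 with quantile normalization. Leaving out each library gave -0.25 to 0.19 for Atf4 and -0.32 to 0.50 for Asns in IR against sham, -0.23 to 0.89 for Chac1 in IPO against IR, and -0.27 to 0.21 for Atf5 and -0.16 to 0.36 for Trib3 in IPO against sham.

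Counts of called genes moved more. Among genes averaging 5 FPKM or more, a filter that drops Trib3, Sesn2 and Asns, 1 of the remaining genes of interest was called higher in IR against sham and 3 lower in IPO against IR. That filter gave 232 genes higher and 418 lower of all genes in IR against sham, and 619 higher and 610 lower in IPO against IR. With only the compared libraries in the fit, IR against sham gave 118 higher and 223 lower, and IPO against sham 5 lower. With the description number IR against sham gave 56 higher and 130 lower, and 1 of the 9 genes higher. Leaving out each library gave 100 to 467 higher and 210 to 894 lower in IR against sham, 633 to 1261 higher and 444 to 1011 lower in IPO against IR, and 1 to 14 higher and 0 to 12 lower in IPO against sham. Of the 9 genes 2 to 5 were then called lower in IPO against IR, the fewest without IR replicate 1 or IPO replicate 2, and 2 to 3 higher in IR against sham. The causes were not tested.

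A fit with the replicate number as a block, although the numbers were not shown to pair libraries, gave 212 genes higher and 434 lower in IR against sham, and 2 higher and 0 lower in IPO against sham. Trib3 lost its call under the block in IR against sham (adjusted p = 0.0697) and IPO against IR (0.0645), and also with median-of-ratios scaling (0.0503 and 0.0528). With only the compared libraries in the fit it lost the call in IR against sham (0.0962). The closest match was a library of its own number for 1 of the 9 libraries. Scaling moved the median of all genes by at most 0.06. Loci within 50 kb of the 9 genes numbered 21. The limits are 3 libraries a group and an unknown depth.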
